A study of Mus musculus with 6 samples.

Results

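The genes described here run mitosis, and their transcripts were followed in mouse granulosa cells with and without the protein kinases ERK1 and ERK2. The list held 42 genes, chosen by symbol, of which 41 were measured. For a gene with several probe sets naming it alone, the brightest on average (mean log2 intensity over the 6 arrays) was used. All 41 had a mean log2 intensity of at least 6, the floor taken for a measured signal, as did 11153 of 18194 genes in all. Ccnb1, the gene of cyclin B1, was not analysed here, because no probe set named it alone in the annotation used.

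The knockout (KO) samples are labelled as ERK1 knockout together with ERK2 fl/fl;Cyp19CRE, and the others are wild type (WT). Cyp19-Cre is driven by the aromatase promoter, which is active in granulosa cells of growing follicles, so loss of ERK2 is limited to cells that have used it, whereas the ERK1 knockout is labelled without a driver. All mice were 23 days old and all were primed 48 h earlier with 5 IU of eCG (equine chorionic gonadotropin), which makes follicles grow. Granulosa cells were then taken with no human chorionic gonadotropin (0 h), or 2.5 h or 4 h after 5 IU of it (hCG), which acts on the luteinizing hormone receptor in place of the ovulatory surge. There was 1 array for each genotype at each time, 6 in all, and the labels name no replicates and do not say whether animals were pooled. No difference between a pair of arrays therefore has a replicate error, and none is given a p-value.

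A cell enters mitosis when CDK1, bound to cyclins A and B, is freed of its inhibitory phosphates by CDC25 phosphatases. Polo-like and Aurora kinases then build the spindle, the spindle checkpoint holds the anaphase-promoting complex until every kinetochore is attached, and that complex has cyclin B and securin destroyed so that sister chromatids part. Most of these genes are transcribed together late in the cell cycle, through promoters with CCAAT boxes bound by NF-Y and a TTTGAA element (the cell cycle homology region, CHR) bound by the DREAM and MuvB complexes. In growing follicles granulosa cells divide under follicle-stimulating hormone, and after the luteinizing hormone surge they leave the cell cycle as they become luteal cells.

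RefSeq promoter windows, from 250 bases before to 50 bases after the start site in the GRCm38.p6 build, were matched by symbol for 35 of the 41 measured genes. CCAAT on either strand was present in 26 of the 35 (74.3%), against 38.7% of 9068 windows of genes over the floor. TTTGAA on either strand was present in 26 of the 35 (74.3%), against 11.6%, and both motifs stood in 22 (62.9%), against 4.81%. Over all 27025 windows in the table the shares were 37.9%, 18.1% and 7.12%. A match describes these letters in the window and is not shown to be a site of binding.

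The sequences below run 5′ to 3′ on the gene's strand from 200 bases before to 20 bases after the start site, with CCAAT (or ATTGG) and TTTGAA (or TTCAAA) in capitals. They are the 4 genes whose arrays differed at least 2-fold between genotypes or, in WT, between times, followed by Bub1b, which passed the model over all arrays, and Mad2l1, whose intensity differed little between any pair of arrays. The windows are chr9:70421535-70421754 on the minus strand for Ccnb2, chr15:99651637-99651856 on the minus strand for Racgap1, chr7:135716360-135716579 on the minus strand for Mki67, chr2:131186748-131186967 on the plus strand for Cdc25b, chr2:118598011-118598230 on the plus strand for Bub1b and chr6:66535021-66535240 on the plus strand for Mad2l1.
Ccnb2: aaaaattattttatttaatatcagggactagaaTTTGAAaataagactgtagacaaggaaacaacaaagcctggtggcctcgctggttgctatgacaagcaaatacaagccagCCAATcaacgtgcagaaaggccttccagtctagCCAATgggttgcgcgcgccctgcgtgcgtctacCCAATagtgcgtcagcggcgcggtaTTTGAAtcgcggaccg
Racgap1: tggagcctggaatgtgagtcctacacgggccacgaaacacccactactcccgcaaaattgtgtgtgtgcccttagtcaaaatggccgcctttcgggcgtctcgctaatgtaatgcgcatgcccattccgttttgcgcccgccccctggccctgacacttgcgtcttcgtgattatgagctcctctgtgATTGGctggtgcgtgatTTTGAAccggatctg
Mki67: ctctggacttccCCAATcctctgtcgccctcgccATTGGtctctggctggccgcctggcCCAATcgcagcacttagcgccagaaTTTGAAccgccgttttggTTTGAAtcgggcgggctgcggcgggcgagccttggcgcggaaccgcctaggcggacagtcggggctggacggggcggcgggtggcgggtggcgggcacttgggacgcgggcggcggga
Cdc25b: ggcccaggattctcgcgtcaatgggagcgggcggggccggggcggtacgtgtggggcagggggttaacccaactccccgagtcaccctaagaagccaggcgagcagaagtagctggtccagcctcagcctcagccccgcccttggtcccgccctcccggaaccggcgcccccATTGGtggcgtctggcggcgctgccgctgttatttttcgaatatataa
Bub1b: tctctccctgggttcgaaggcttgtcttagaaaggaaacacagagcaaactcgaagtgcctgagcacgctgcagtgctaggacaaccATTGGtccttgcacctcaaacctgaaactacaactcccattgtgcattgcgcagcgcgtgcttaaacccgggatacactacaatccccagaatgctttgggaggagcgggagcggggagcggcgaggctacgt
Mad2l1: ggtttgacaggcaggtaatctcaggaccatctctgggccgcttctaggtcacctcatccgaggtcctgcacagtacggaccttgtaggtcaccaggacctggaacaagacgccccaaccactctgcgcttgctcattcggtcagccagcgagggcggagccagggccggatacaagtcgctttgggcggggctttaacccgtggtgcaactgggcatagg
Ccnb2 and Mki67 each show several copies of both motifs, Racgap1 shows a copy of each, Cdc25b and Bub1b show a CCAAT alone in the stretch printed, and Mad2l1 shows neither.

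As a check of the arrays, the median intensity was 54 or 55 on each, and the 3′ to 5′ ratio of control probe sets, a sign of RNA quality, was higher in KO at each time. For Gapdh it was 5.21, 3.99 and 4.24 in KO and 4.79, 3.55 and 4.01 in WT at 0, 2.5 and 4 h, and for actin 3.30, 3.11 and 3.37 in KO and 3.18, 2.56 and 2.86 in WT. Its part in the results was not tested. Of 12 granulosa markers 11 were over the floor and none was at 0; their summed intensity was 150493 to 175177 in KO and 96422 to 156062 in WT, lowest in WT at 4 h. Of 18 oocyte markers 15 were over the floor, and their summed intensity over the 3 times was 39001, 16728 and 14848 in KO and 21204, 13236 and 14060 in WT. The KO array at 0 h was thus the highest for oocyte RNA, and each of the 15 was highest there. The transcripts of the targeted kinases were not analysed here, which leaves the genotype labels unchecked. In RNA from many cells, fewer dividing cells and less of each transcript per cell cannot be told apart.

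Before hCG the mitosis genes were at similar levels in both genotypes. The median log2 difference, KO minus WT, was 0.09 over the 41 genes and -0.03 over all 11153 genes, and 31 of the 41 lay above 0, against 43.0% of all genes. None of the 41 was at least 2-fold higher, against 0.681% of all genes, and none at least 2-fold lower, against 0.852%. None reached 1.5-fold either, where 3.85% of all genes were higher and 3.3% lower. On the probe sets used, the widest differences were Kif23, 1.44-fold higher in KO, and Hmmr, 1.36-fold lower. The dimmer second probe sets of Anln (1.97-fold), Pttg1 (1.65-fold) and Top2a (1.52-fold) did pass 1.5-fold, higher in KO, and none was that much lower.

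After hCG the genotypes parted, with lower levels in WT and, in KO, a list median closer to that at 0 h. In WT at 2.5 h all 41 genes lay below their 0 h level (median -0.40 on the log2 scale, against -0.22 for all genes, of which 72.2% lay below). At 4 h 39 of 41 did (median -0.51, against -0.21 and 66.4%). These WT medians were -0.21 and -0.32 with cyclic loess and -0.22 and -0.27 with each array centred on its median. In KO 26 of 41 lay below 0 h at 2.5 h, where 52.3% of all genes did, and 27 at 4 h, against 48.0%. Their medians were -0.15 at 2.5 h and -0.12 at 4 h, against -0.02 and 0.02 for all genes. These KO medians were -0.122 and -0.158 with cyclic loess and -0.105 and -0.109 with centring, so the gap between genotypes was smaller under either scaling. The responses at both times within a genotype share its 0 h array.

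**Figure D1:**
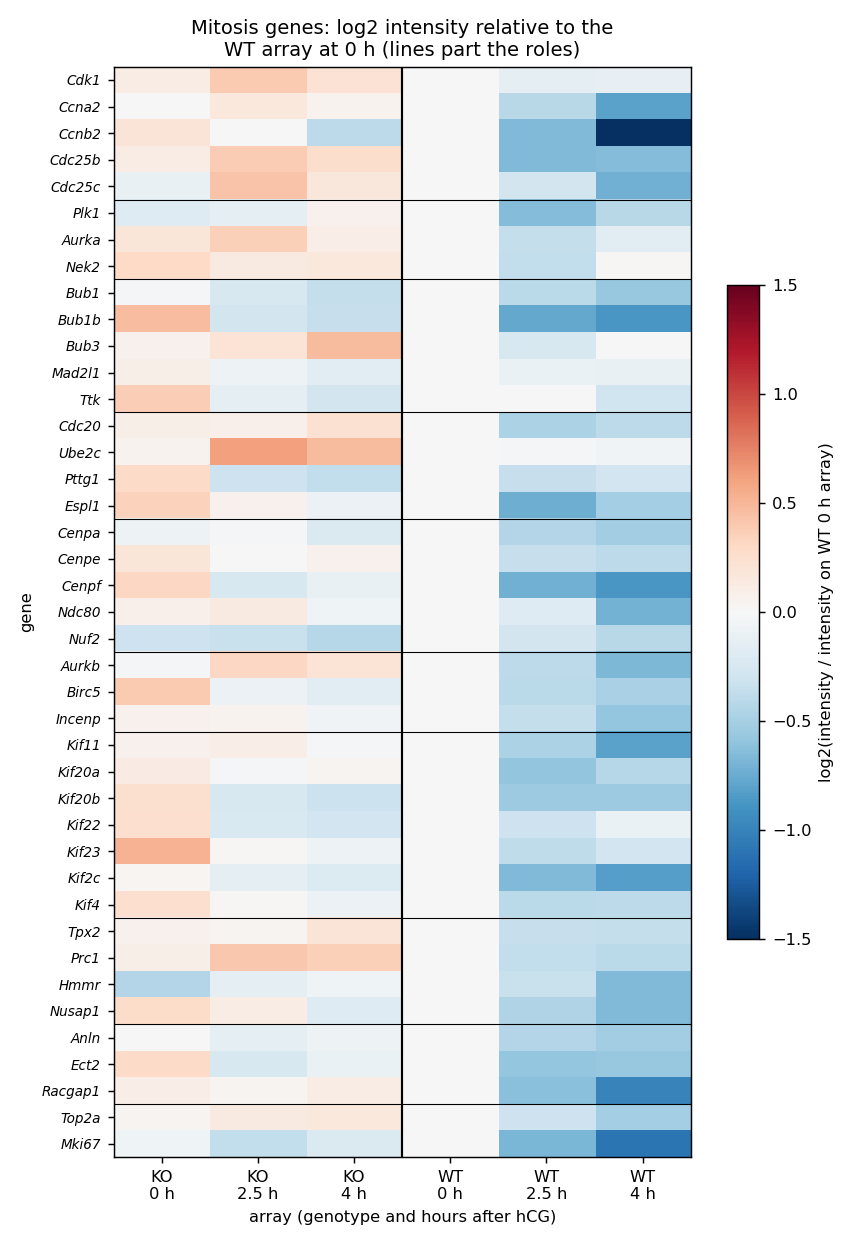
Log2 intensity of each of the 41 mitosis genes (rows, grouped by role) on the 6 arrays (columns), relative to the WT array at 0 h; blue is lower and red higher. The KO columns are pale on the whole, with medians of 0.09, 0.02 and -0.07, and the WT columns at 2.5 h and 4 h are blue, with medians of -0.40 and -0.51.

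The size of these differences was modest gene by gene. In WT none of the 41 was at least 2-fold lower at 2.5 h, against 1.0% of all genes, and 3 were at 4 h (Ccnb2, Mki67 and Racgap1), against 9.11%, so the share of members past 2-fold was near that of all genes. Under cyclic loess or centring Ccnb2 alone passed, with Mki67 at -0.92 and -0.86 and Racgap1 at -0.81 and -0.76 on the log2 scale. At least 1.5-fold lower were 10 at 2.5 h, against 13.1% of all genes, and 14 at 4 h, against 25.2%. In KO none was at least 2-fold lower at 2.5 h, against 3.56%, or at 4 h, against 4.55%. At 1.5-fold, 2 KO genes were lower at 2.5 h (Bub1b and Pttg1), against 12.2%, and 4 at 4 h (these, Ttk and Kif23), against 11.9%. No mitosis gene was 1.5-fold higher after hCG in KO (7.63% of all genes at 2.5 h and 9.73% at 4 h) or in WT (5.81% and 8.69%). Between 2.5 h and 4 h in WT 1 gene, Ccnb2, was lower by 1.5-fold or more (1.80-fold), against 7.85% of all genes.

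Set against WT at the same time, KO was higher for 39 of 41 genes at 2.5 h (66.7% of all genes) and for 37 at 4 h (68.2%). The median log2 difference was 0.45 at 2.5 h, against 0.14 for all genes, and 0.47 at 4 h, against 0.20. At 2.5 h 1 gene was at least 2-fold higher in KO (Cdc25b), against 1.44% of all genes, and at 4 h there were 2 (Ccnb2 and Racgap1), against 5.0%. At 1.5-fold there were 9 at 2.5 h, against 6.81%, and 15 at 4 h, against 18.1%; none was 1.5-fold lower at either time (5.54% and 6.62%), or 2-fold lower (2.75% and 3.51%). Because all genes tended to be higher in KO after hCG, the members were also set against the median of all genes. Above it lay 36 of 41 at 2.5 h and 35 at 4 h, but also 35 at 0 h. The members' median exceeded it by 0.123 at 0 h, 0.306 at 2.5 h and 0.275 at 4 h (log2). With arrays scaled by cyclic loess the members' median differences between KO and WT were 0.13 at 0 h, 0.29 at 2.5 h and 0.28 at 4 h, and no member passed 2-fold.

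**Figure D2:**
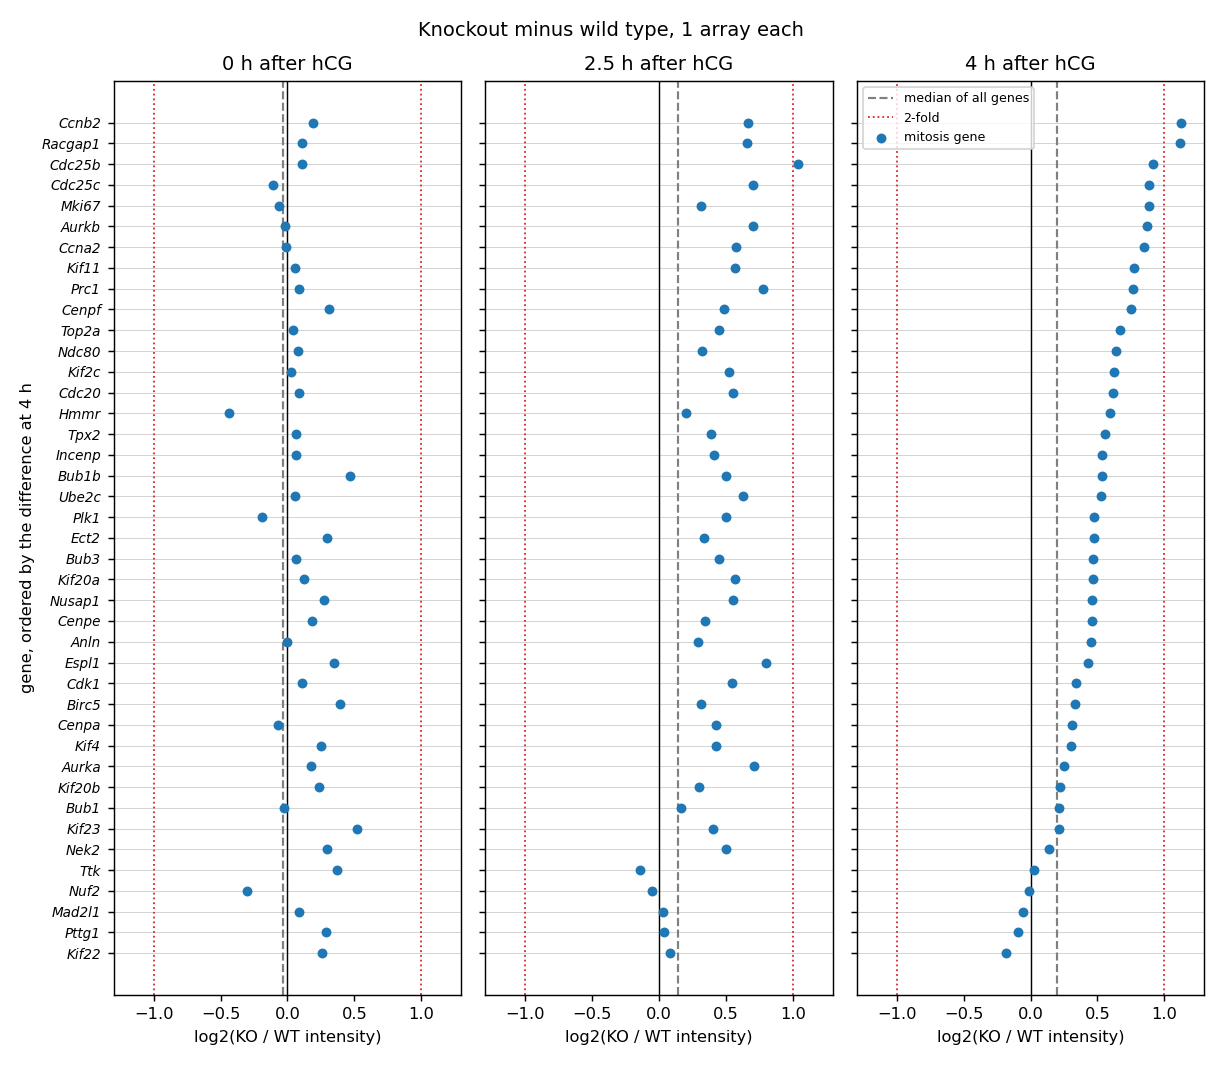
Log2 ratio of KO to WT intensity for each mitosis gene at 0 h, 2.5 h and 4 h, with genes ordered by the ratio at 4 h; the dashed grey line is the all-gene median and the dotted red lines mark 2-fold. At 0 h the points lie on both sides of 0, and most lie to the right of the grey line, as at 4 h. At 4 h Ccnb2 and Racgap1 lie past 2-fold and Kif22 is lowest at -0.18.

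The ordering of the arrays gave a similar picture. KO was above WT at each of the 3 times in 27 of 41 genes (65.9%, against 27.6% of all genes). In 36 of 41 genes both KO arrays after hCG were above both WT arrays after hCG (87.8%, against 45.8% of all genes). In 12 genes the 3 KO arrays were all above the 3 WT arrays (29.3%, against 7.94%): Cdk1, Cdc25b, Aurka, Nek2, Bub3, Cdc20, Ube2c, Cenpe, Tpx2, Prc1, Racgap1 and Top2a. The second probe sets of Cdc20 and Prc1 kept this order, and those of Nek2, Bub3, Cenpe, Tpx2, Racgap1 and Top2a did not. The others had no second probe set over the floor. In none of the 41 genes were the 3 KO arrays all below the WT arrays (5.35% of all genes). The lowest of the 6 arrays was a WT array after hCG for 38 of 41 genes (92.7%, against 57.5%).

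Genes of mitotic entry come first in the order of events, and their role group had the highest median difference between genotypes at 4 h. All 5 cyclin, CDK1 and CDC25 genes were higher in KO at 2.5 h and at 4 h, with a median log2 difference of 0.67 and 0.89. Ccnb2, which encodes cyclin B2, a partner of CDK1, had intensities of 2230, 1958 and 1494 in KO at 0, 2.5 and 4 h, and of 1956, 1233 and 686 in WT. The WT array at 4 h was the lowest of the 6, and both WT arrays after hCG lay under all 3 KO arrays. Ccnb2 fell 2.85-fold in WT by 4 h and was 1.49-fold lower in KO, and was 2.18-fold higher in KO than in WT at 4 h.

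Ccna2 encodes cyclin A2, which acts in both S phase and mitotic entry. Its intensities were 1735, 1945 and 1810 in KO and 1748, 1307 and 1004 in WT, so that the genotypes were level at 0 h and KO was 1.80-fold higher at 4 h. Its second probe set gave a smaller log2 difference at 4 h, 0.27 against 0.85. Cdc25b, a phosphatase that starts CDK1 activation, stood at 286, 345 and 319 in KO and at 265, 168 and 169 in WT. The 3 KO arrays were all above the 3 WT arrays, and KO was 2.05-fold higher at 2.5 h and 1.89-fold higher at 4 h.

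Cdc25c, the phosphatase that completes that switch, was at 151, 220 and 183 in KO and at 163, 135 and 99 in WT. It was 1.85-fold higher in KO at 4 h, and its second probe set put this at 1.55-fold. Both CDC25 genes were dim on these arrays. Cdk1 itself differed less, by 1.46-fold at 2.5 h and 1.27-fold at 4 h, although its 3 KO arrays were all above the WT ones.

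Among the mitotic kinases Aurka and Nek2 differed more at 2.5 h than at 4 h, and Plk1 differed about equally at both. Plk1, the polo-like kinase of spindle poles and kinetochores, had intensities of 626, 644 and 743 in KO and 713, 456 and 534 in WT. KO was lower than WT at 0 h, 1.41-fold higher at 2.5 h and 1.39-fold higher at 4 h. Aurka, which matures the centrosomes, was at 1104, 1251 and 1043 in KO and 976, 764 and 876 in WT. At 2.5 h it was 1.64-fold higher in KO, and at 4 h 1.19-fold higher, with the 3 KO arrays above the 3 WT arrays. Nek2, a centrosome kinase, differed less at 4 h (1.10-fold) than at 2.5 h (1.41-fold), higher in KO each time.

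The 5 spindle checkpoint genes did not share a pattern. Bub1b, which encodes BUBR1, the checkpoint inhibitor of the anaphase-promoting complex, fell after hCG in the model that takes both genotypes together. Its intensities were 3881, 2333 and 2223 in KO and 2814, 1649 and 1538 in WT. In each genotype both later arrays lay below its 0 h array. A model of time and genotype over all 6 arrays (limma, Benjamini-Hochberg adjustment over 11153 genes) gave a log2 response of -0.80 ± 0.14 (SE), adjusted p = 0.0278, and Bub1b was lower than at 0 h on 4 of 4 arrays after hCG. This call was lost without either 0 h array (adjusted p = 0.0761 without KO and 0.0778 without WT) or either 2.5 h array (0.121 without KO and 0.0922 without WT).

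Ttk, the kinase MPS1 that starts checkpoint signalling, was at 505, 353 and 323 in KO and at 390, 389 and 317 in WT. It was highest in KO at 0 h and 1.56-fold lower there at 4 h, and the later arrays of the genotypes overlapped. Mad2l1, which encodes the checkpoint protein MAD2, ranged from 2106 to 2516 in KO and from 2187 to 2369 in WT. Bub1, a checkpoint kinase, was 1.16-fold higher in KO at 4 h, and Bub3, their kinetochore partner, was 1.38-fold higher.

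Around the anaphase-promoting complex, its activators and the separation pair differed in pattern. Cdc20, its mitotic activator, stood at 3074, 3054 and 3385 in KO and at 2890, 2083 and 2207 in WT, and was 1.53-fold higher in KO at 4 h. Ube2c, its ubiquitin-conjugating enzyme, was at 1006, 1483 and 1347 in KO and at 970, 960 and 935 in WT. Here the WT arrays were nearly level and the KO arrays after hCG were the high ones, 1.47-fold above KO at 0 h at 2.5 h and 1.34-fold at 4 h. For both genes the 3 KO arrays lay above the 3 WT arrays.

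Pttg1, the gene of securin, which holds separase inactive, had intensities of 12013, 7938 and 7617 in KO and 9858, 7728 and 8111 in WT. The 2 genotypes overlapped after hCG, and the KO array at 0 h stood above the others. Espl1, which encodes separase, the protease that cuts cohesin, was at 899, 741 and 668 in KO and at 708, 426 and 497 in WT. At 2.5 h it was 1.74-fold higher in KO, and at 4 h 1.34-fold higher.

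At the kinetochore 4 of 5 genes were higher in KO at both later times. Cenpf, a protein of the outer kinetochore, had intensities of 1049, 719 and 781 in KO and 847, 514 and 463 in WT, and was lower after hCG in both genotypes. KO was 1.69-fold higher at 4 h. Ndc80, which binds spindle microtubules, was dim, at 248, 258 and 224 in KO and 235, 206 and 144 in WT, with WT at 4 h the lowest array.

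Nuf2, the partner of NDC80, did not follow it. It ranged from 496 to 538 in KO and from 499 to 665 in WT and was highest in WT at 0 h. Cenpa, the centromeric histone, was 1.24-fold higher and Cenpe, a kinetochore motor, 1.37-fold higher in KO at 4 h, but the second probe set of each gave lower values in KO than in WT at 2.5 h and 4 h.

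The chromosomal passenger complex corrects faulty attachments and then directs cytokinesis. Its kinase gene Aurkb was at 744, 938 and 866 in KO and at 754, 576 and 473 in WT. The genotypes were level at 0 h, and after hCG KO was higher, by 1.63-fold at 2.5 h and 1.83-fold at 4 h. The scaffold gene Incenp was 1.45-fold higher and the survivin gene Birc5 1.26-fold higher in KO at 4 h, and Birc5 was already 1.32-fold higher at 0 h.

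Kinesin motors lay below 0 h in all 7 cases at 4 h in both genotypes, by a median log2 of -0.34 in KO and -0.43 in WT. Kif11, the motor that pushes spindle poles apart, was at 397, 408 and 373 in KO and at 381, 275 and 218 in WT, with the KO arrays nearly level. It was 1.71-fold higher in KO at 4 h, and its second probe set gave a log2 difference of 0.84 against 0.78. Kif2c, which depolymerizes microtubules at centromeres, was at 1500, 1326 and 1272 in KO and at 1469, 925 and 827 in WT, and was 1.54-fold higher in KO at 4 h.

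Kif20a, a motor of the central spindle, had intensities of 481, 435 and 452 in KO and 441, 293 and 328 in WT. Kif23, its companion at the midzone, was at 2310, 1634 and 1527 in KO and at 1608, 1235 and 1320 in WT. The high array for Kif23 was KO at 0 h, and its difference between genotypes shrank to 1.16-fold at 4 h. Kif4, Kif20b and Kif22 differed by 1.23-fold, 1.17-fold and 1.14-fold at 4 h, the first 2 higher and Kif22, a motor on chromosome arms, lower in KO.

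Spindle proteins that bind microtubules were higher in KO at both later times. Prc1, which bundles the midzone microtubules, was at 2271, 2836 and 2747 in KO and at 2137, 1655 and 1615 in WT, and was 1.71-fold and 1.70-fold higher in KO at those later times. Its 3 KO arrays lay above the 3 WT arrays, as did those of Tpx2, the activator of Aurora A, which was 1.47-fold higher at 4 h. This order held on the second probe set of Prc1 and not on that of Tpx2. In Hmmr, a spindle and hyaluronan-binding protein, the order turned: it was at 343, 424 and 443 in KO and at 465, 369 and 293 in WT, lower in KO at 0 h and 1.51-fold higher at 4 h. Nusap1, which stabilizes spindle microtubules, was at 1248, 1113 and 901 in KO and at 1034, 759 and 654 in WT, and was lower after hCG in both genotypes.

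Of the cytokinesis genes Racgap1, part of the centralspindlin complex that positions the cleavage furrow, was at 515, 491 and 518 in KO and at 479, 311 and 239 in WT. The KO arrays were nearly level, whereas Racgap1 fell 2.00-fold in WT by 4 h and was 2.17-fold higher in KO at that time. Its second probe set gave a log2 difference of 0.57 between genotypes and of -0.26 in WT, so that neither 2-fold difference was seen there. Anln, the furrow scaffold anillin, was 1.37-fold higher and Ect2, which activates RhoA at the furrow, 1.39-fold higher in KO at 4 h.

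Both chromosome proteins were lower in WT after hCG. Mki67, whose Ki-67 protein coats mitotic chromosomes and is the usual marker of cycling cells, was at 4224, 3424 and 3795 in KO and at 4406, 2749 and 2058 in WT. It fell 2.14-fold in WT by 4 h and was 1.84-fold higher in KO than in WT at 4 h. Top2a, the topoisomerase that untangles sister chromatids, was at 2218, 2375 and 2403 in KO and at 2155, 1743 and 1514 in WT, with the 3 KO arrays above the 3 WT arrays. That order was not seen on the dimmer second probe set of Top2a.

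**Figure D3:**
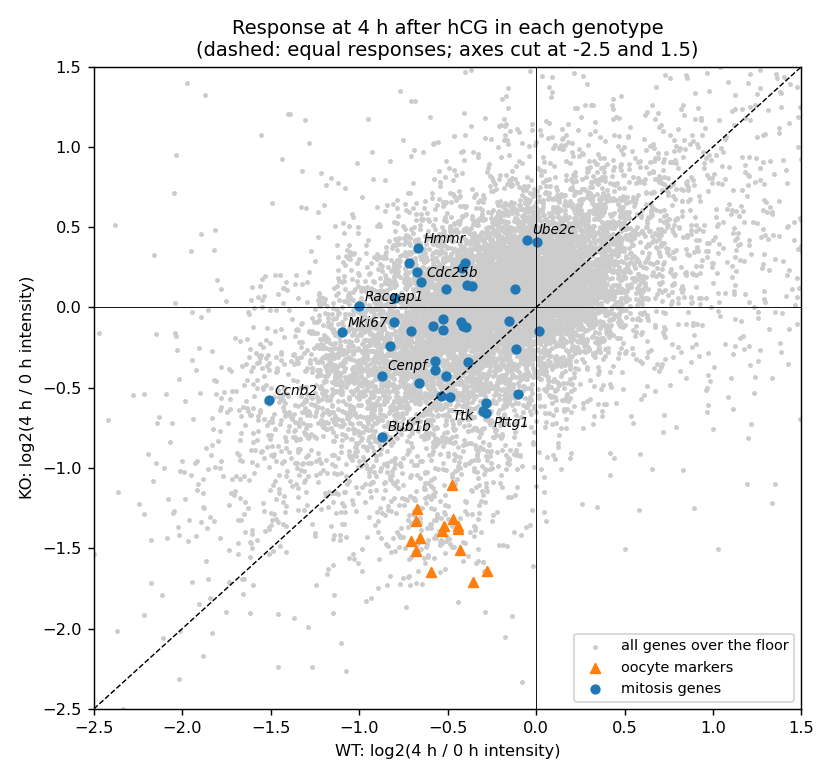
Log2 response at 4 h after hCG in WT (x axis) and in KO (y axis) for the 41 mitosis genes (blue), 15 oocyte markers (orange triangles) and all genes over the floor (grey); the dashed line marks equal responses. Most mitosis genes lie above the dashed line, to the left of 0 and near 0 in KO, and the oocyte markers lie below it, with a median of -1.39 in KO and -0.52 in WT.

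The response in KO was then set against that in WT (KO response minus WT response, which is the genotype difference at that time minus that at 0 h). The median was 0.38 at 2.5 h and 0.40 at 4 h for the mitosis genes, against 0.15 and 0.23 for all genes. None passed 2-fold at 2.5 h, against 1.91% of all genes, and 2 did at 4 h (Hmmr and Racgap1), against 5.97%. At 1.5-fold there were 6 at 2.5 h, against 10.3%, and 13 at 4 h, against 21.3%. With cyclic loess the medians were 0.13 at each time. Both 2-fold calls were lost with cyclic loess, with centring and with probe sets averaged per gene, and that of Racgap1 also with its second-brightest probe set (0.60 on the log2 scale). At the other end were Ttk at 2.5 h (-0.51) and Kif22 at 4 h (-0.44), but the other 2 probe sets of Kif22 gave the opposite sign (0.17 and 0.16).

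A high KO array at 0 h lowers this difference. The KO array at 0 h was the highest of the 6 for 19 of 41 mitosis genes (46.3%, against 24.3% of all genes), among them Bub1b, Pttg1, Ttk, Kif23, Kif22 and Espl1. The oocyte markers were highest on that array in 15 of 15 cases, with a median log2 difference from WT of 0.91 at 0 h and a median KO response of -1.39 at 4 h. Oocytes hold stores of many mitosis transcripts; the part of oocyte RNA in these values was not tested. Taken relative to the WT array at 0 h, the median of the mitosis genes in KO was 0.02 at 2.5 h and -0.07 at 4 h.

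Over all 6 arrays the limma models gave few calls. For the genotype difference over the 3 times, 40 of 41 estimates were above 0 (median 0.37, log2), but none passed an adjusted p of 0.05 with limma, where 0.00897% of all genes were called higher and 0.0269% lower. At an unadjusted p under 0.05 there were 17 of the 41, all higher in KO, against 17.4% of all genes, counted in both directions. The lowest adjusted p was 0.2, for Bub1b (0.50 ± 0.13, SE, on the log2 scale), which was higher in KO at 3 of 3 times. For hCG over both genotypes Bub1b was the 1 call, against 6.73% of all genes called lower and 3.44% higher. An unadjusted p under 0.05 was found for 14 of the 41, all lower, against 30.1% of all genes in both directions. For the genotype by hCG interaction limma called none, as over all genes (0.0% higher and 0.0% lower). At an unadjusted p under 0.05 there were 4 of the 41 (Cdc25b, Aurkb, Prc1 and Hmmr), all above 0, against 9.1% of all genes in both directions. The lowest adjusted p was 0.535, for Cdc25b (0.87 ± 0.23, SE). In simulated data of this size, with 200 changed genes, limma recovered 0% of 2-fold differences in each of these tests. It recovered 96% of 4-fold genotype differences. The hCG test on the arrays called more genes than were changed in the simulation, 384 higher and 751 lower. Bub1b was called there at a log2 response of -0.795, which is under 2-fold. The simulated 0% therefore does not give the power of the hCG test on these arrays.

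The promoter classes were set beside the values without a test. The 22 genes with both motifs had a median log2 difference between KO and WT of 0.49 at 2.5 h and 0.50 at 4 h, and the 13 without both had 0.32 and 0.33. The 5 with neither were Nuf2, Nusap1, Mad2l1, Pttg1 and Birc5, with a median of 0.04 at 2.5 h and -0.01 at 4 h. The classes overlapped: at 4 h genes with both ran from -0.18 to 1.12, and genes with neither from -0.09 to 0.46. Before hCG the order was the other way, with a median of 0.11 for genes with both and 0.27 for the 5 with neither. The WT response at 4 h had medians of -0.46 for genes with both motifs, -0.53 for the 13 without both and -0.41 for the 5 with neither. In KO the medians at 4 h were -0.12, -0.24 and -0.47 in the same order.

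Further genes of division are given beside the share of all genes, and no difference between lists was tested. Of 62 further mitosis genes over the floor 56 were higher in KO at 4 h (68.2% of all genes), 14 by 1.5-fold (18.1%) and none by 2-fold (5.0%), with a median log2 difference of 0.34 against 0.20 for all genes. In WT at 4 h 53 of them lay below 0 h (66.4%), 3 by 2-fold (9.11%), with a median of -0.46 against -0.21. Of 44 DNA replication genes 41 were higher in KO at 4 h, 9 by 1.5-fold and none by 2-fold (median 0.36), and 39 lay below 0 h in WT, 1 by 2-fold (median -0.40). The counts just given at 1.5-fold and 2-fold were near or under those of all genes. The counts that follow lay above them, except for DNA replication genes in 2 cases. These were the count at 1.5-fold at 2.5 h and that of the 3 KO arrays above the 3 WT arrays. In WT at 4 h 22 of the 62 and 15 of the 44 were at least 1.5-fold lower, against 25.2% of all genes. At 2.5 h 10 of the 62 and 1 of the 44 were at least 1.5-fold higher in KO than in WT, against 6.81%. The 3 KO arrays were all above the 3 WT arrays in 7 of the 62 (11.3%) and 2 of the 44 (4.55%), against 12 of the 41 members and 7.94% of all genes. KO was above WT at each of the 3 times in 33 of the 62 (53.2%) and 16 of the 44 (36.4%), against 27 of the 41 members and 27.6% of all genes.

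Lists of machinery that acts with the members had medians between those of all genes and those of the members. The median log2 difference between KO and WT over all genes was 0.14 at 2.5 h and 0.20 at 4 h. The 17 genes of the anaphase-promoting complex held its subunits and some of its regulators, such as Fzr1, Fbxo5 and Ube2s. Their medians were 0.15 at 2.5 h and 0.29 at 4 h, with 13 higher in KO at 4 h and Anapc7 2.00-fold higher. At 1.5-fold 5 of the 17 were higher in KO at 2.5 h (6.81% of all genes) and 3 at 4 h (18.1%). All of 17 condensin and cohesin genes were higher in KO at 4 h (median 0.26, and 0.29 at 2.5 h). By 2-fold there was 1: Wapl, which releases cohesin from chromosomes, at 3823, 3974 and 4121 in KO and 3428, 2039 and 1291 in WT. Of 22 genes for regulators of late cell cycle transcription 17 were higher in KO at 4 h (median 0.32, and 0.26 at 2.5 h), with none at 2-fold between genotypes. Rbl2, a subunit of the DREAM complex, was at 283, 135 and 146 in KO and at 258, 145 and 96 in WT, so that it was 2.10-fold lower in KO and 1.78-fold lower in WT at 2.5 h, and 1.94-fold lower in KO and 2.69-fold lower in WT at 4 h.

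Genes that hold cells before mitosis or slow division had small median differences between genotypes, with single genes apart in both directions. Of 14 over the floor the median log2 difference between KO and WT was 0.00 at 2.5 h and 0.03 at 4 h. At 4 h 5 of the 14 were at least 1.5-fold higher in KO (18.1% of all genes) and 1 lower (6.62%). At least 2-fold lower than at 0 h were Chek1 in KO at 2.5 h (-1.01, log2) and Chek2 in WT at 4 h (-1.51). Btg1, an antiproliferative gene, had intensities of 1947, 11547 and 10331 in KO and 1983, 10635 and 9815 in WT, and Cdkn1a, the CDK inhibitor p21, of 584, 1689 and 2049 in KO and 659, 2097 and 2289 in WT. Both rose at least 2-fold in each genotype. Gadd45a, a stress gene whose protein can restrain CDK1, was at 86, 88 and 76 in KO and at 142, 257 and 319 in WT. It was 2.92-fold lower in KO at 2.5 h and 4.20-fold lower at 4 h, and among these 14 it was the 1 gene past 2-fold between genotypes.

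**Figure D4:**
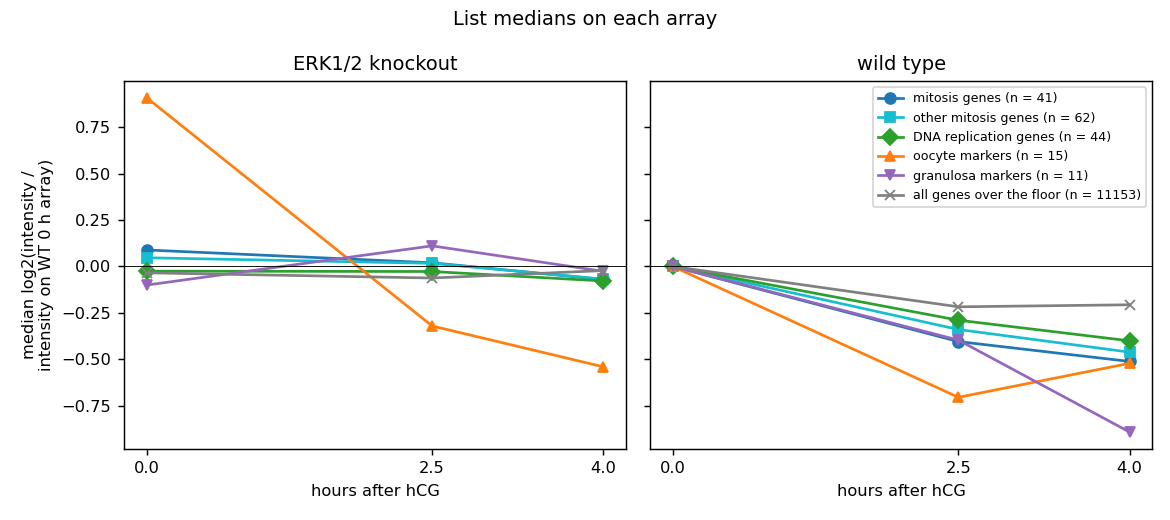
Median log2 intensity relative to the WT array at 0 h (y axis) against hours after hCG (x axis) for the mitosis genes and other lists, in KO (left) and WT (right), with 1 array per point. In WT the mitosis genes (-0.51 at 4 h), the other mitosis genes (-0.46) and the DNA replication genes (-0.40) lie below the line of all genes (-0.21), in KO they stay near 0, and the oocyte markers begin at 0.91 in KO.

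Markers of granulosa and other cells are given here as values, KO against WT. The granulosa markers had a median log2 difference between KO and WT of 0.48 at 2.5 h and 0.69 at 4 h, and 11 of 11 lay below 0 h in WT at 4 h. Inhbb, an inhibin and activin subunit, was at 22865 in KO and 2518 in WT at 4 h. The oocyte markers had 0.36 at 2.5 h and 0.04 at 4 h. Surface epithelium markers, 7 of 8 over the floor, summed to 2940, 3712 and 4020 in KO and to 2700, 2653 and 3060 in WT. Their median log2 difference between KO and WT was 0.62 at 0 h, 0.66 at 2.5 h and 0.81 at 4 h. Endothelial markers, 7 of 12 over the floor, were lower in KO, with a median log2 difference of -0.71 at 2.5 h (6 of 7 lower, 5 by 1.5-fold) and -0.22 at 4 h, and sums of 1076, 1195 and 1160 in KO and 1203, 1908 and 1510 in WT. Theca markers, 5 of 8 over the floor, summed to 31781, 55684 and 60264 in KO and to 37480, 35962 and 33837 in WT. Their medians were -0.11 at 0 h, 0.18 at 2.5 h and 0.61 at 4 h, and 2 of the 5 were lower in KO at each later time. Cyp17a1, the androgen-making enzyme of theca cells, was at 13997 in KO and 1399 in WT at 4 h. Ptch1 was lower in KO (log2 -0.76 at 2.5 h and -0.28 at 4 h), and Cyp11a1 was lower at 0 h (-1.41). Of the red cell markers Alas2 alone was over the floor, at 362, 193 and 227 in KO and at 325, 516 and 536 in WT. Smooth muscle and stroma markers had medians of -0.23 at 2.5 h and 0.17 at 4 h, and leukocyte markers of 0.06 and 0.14. The part of these cells in the mitosis genes' values was not tested.

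Of the 41 genes 20 had a second probe set over the floor. Its sign matched the first in 20 of 20 for WT at 4 h against 0 h and in 19 of 20 at 2.5 h. For KO against its 0 h array it matched in 13 at 2.5 h and 16 at 4 h. For KO against WT it matched in 14 at 0 h, 17 at 2.5 h and 15 at 4 h. The 5 that did not match at 4 h were Nek2, Cenpa, Cenpe, Incenp and Kif22, and none of them was among the 15 genes at 1.5-fold.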

How the data were processed

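RNA of ovarian granulosa cells was measured on 6 Affymetrix arrays, with cRNA made from 5 ug of total RNA, per the labels. The deposited values are 1 intensity per probe set and array, which the submitters' processing notes credit to RMA and the affy package (no version given in the sources used here). They are linear whole numbers between 9 and 59425, so log2 was taken. RMA forces near-equal distributions on the arrays, which hides any shift in RNA content per cell, and the number of arrays, 6, limits the precision.

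Of 45101 probe sets 34958 named 1 gene in the platform annotation, 932 named several and 9211 none; 34754 had their gene ID in the GRCm38.p6 gene table. Genes with a mean log2 of at least 6 (intensity 64) were kept. A gene counted as different between arrays at 2-fold or more with the brighter array at log2 6 or more, for 9 comparisons of array pairs. limma 3.58.1 in R 4.3.3 fitted time plus genotype, and genotype by hCG with 2.5 h and 4 h together, over 11153 genes, with Benjamini-Hochberg adjustment at 0.05. Each fit left 2 residual degrees of freedom, which hold differences between times or genotypes and not the spread between animals, and the prior added 3.99 and 2.97. Tested on simulated data with 200 changed genes, the fits recovered 96%, 98% and 0% of 4-fold changes (genotype, hCG, interaction) and 99.5%, 100% and 93.5% of 16-fold changes.

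Members, lists and tests were chosen with earlier results of these data known. Members at least 1.5-fold apart in any of 7 comparisons (KO against WT at each time, each later time against 0 h) were named with values on every array, and the others by folds and ranges. Of the other lists at most 3 genes at least 2-fold apart were named per list and comparison; Inhbb, Rbl2, Anapc7, Wapl and Alas2 were picked out after their values were seen. Alternatives were the floor, the fold, the probe set, the scaling and leaving out each array.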

Additional observations from a re-analysis of the deposited data

Results flagged for a closer look

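In 10 mitosis genes both KO arrays after hCG lay above the KO array at 0 h while both WT arrays after hCG lay below the WT array at 0 h, as in 15.5% of all genes over the floor. The mean log2 response in KO minus that in WT was 0.33 for Cdk1, 0.72 for Ccna2, 0.87 for Cdc25b, 0.91 for Cdc25c and 0.68 for Plk1. It was 0.52 for Ube2c, 0.81 for Aurkb, 0.68 for Prc1, 0.84 for Hmmr and 0.51 for Top2a. The second probe sets of Ccna2, Cdc25c and Aurkb showed the same pattern, and those of Prc1 and Top2a did not. At 0, 2.5 and 4 h in KO the second probe set read 2017, 1929 and 2017 for Prc1 and 203, 152 and 126 for Top2a. The responses at both times share the 0 h array of their genotype, and this pattern itself was not tested. In the limma interaction of genotype and hCG none of the 41 genes passed an adjusted p of 0.05; the lowest was 0.535, for Cdc25b, and 4 had an unadjusted p under 0.05.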

How the results depend on the processing

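No paired analysis was possible because there is 1 array per genotype and time and the labels give no replicate numbers. The choices below were listed with earlier results known, and those on KO response minus WT response, and on the WT 0 h array as baseline, were added after seeing the data. At a 1.5-fold threshold the counts of members were 9 and 15 higher in KO than WT at 2.5 h and 4 h, 2 and 4 lower in KO at 2.5 h and 4 h, 10 and 14 lower in WT, 1 lower in WT from 2.5 h to 4 h, and 6 and 13 higher for KO response minus WT response. With the mean of all probe sets (40 members) 1 was higher in KO at 4 h, the KO median at 2.5 h was -0.028, and the response difference had medians of 0.248 and 0.257 with 0 at 2-fold at 4 h. With the second-brightest probe set (34 members) 1 was lower in KO at 4 h, the WT median from 2.5 h to 4 h was -0.030, and 0 passed in the response difference at 4 h. Cyclic loess left 0 higher in KO at 2.5 h and at 4 h (medians 0.290 and 0.282) and 1 lower in WT at 4 h, Ccnb2, with WT medians of -0.209 and -0.323, a KO median from 2.5 h to 4 h of -0.114, and response differences of 0.127 and 0.132, 0 at 2-fold. Centring arrays on the median likewise left 0 and 0 higher in KO (0.269 at 4 h) and 1 lower in WT (-0.220 and -0.272; -0.024 from 2.5 h to 4 h), with response differences of 0.234 and 0.179, 0 at 2-fold. Under these scalings the interaction medians were 0.153 and 0.207, against 0.391, and centring gave an hCG median of -0.151, against -0.270. Relative to the WT 0 h array the KO medians were 0.020 and -0.070; the first turns the sign. A floor at log2 7 gave 2 limma calls lower after hCG. Leaving out each array gave 0 to 1 call for genotype (1 without either 0 h array), 0 to 6 for hCG (6 without KO at 4 h) and hCG medians of -0.482 to -0.107. The cause of these shifts was not tested.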
